A study of Homo sapiens with 6 samples.

Results

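ANXA10, CTSE, CEACAM6 and CLDN18 are genes of mucous epithelium that are read in pancreatic tumours as markers of the classical, gland-forming subtype, and 3 of them (ANXA10, CTSE and CLDN18) are typical of the gastric surface. They were taken by symbol from a deposited table of 753 genes, and all 4 were found, so the set is 4 of 753 genes. All 4 were lower in AsPC-1 cells carrying a hairpin against TMPRSS4, by 3.48-fold for ANXA10, 3.24-fold for CEACAM6, 2.15-fold for CTSE and 3.53-fold for CLDN18. The 753 rows were selected for a difference in these libraries, and 26.3% of them were lower. The 4 genes were chosen with earlier results known, so their shared direction is not evidence about the set. CLDN18 was close to the limit of detection in every library.

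AsPC-1 is an established human cell line from a metastatic pancreatic adenocarcinoma. Per the labels, 3 samples (AS-sh) received a lentivirus encoding shTMPRSS4 and are labelled TMPRSS4-Knockdown, and 3 samples (AS-NC) received a control lentivirus and are labelled TMPRSS4 NC. All 6 share the cell line and lentiviral delivery, and the labels name no hairpin sequence, second hairpin, clone or time after infection. TMPRSS4, a membrane-bound serine protease, was not analysed here, so the name knockdown rests on the labels alone.

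The normal exocrine pancreas makes little of these transcripts, whereas early neoplastic ducts and many classical tumours take on a gastric, mucus-cell-like programme that includes them. ANXA10 encodes annexin A10, a member of the family of calcium-dependent phospholipid-binding proteins. CTSE encodes cathepsin E, an intracellular aspartic protease of endosomes related to pepsin. CEACAM6 encodes a cell adhesion molecule of the carcinoembryonic antigen family that is held on the apical surface by a lipid anchor. CLDN18 encodes claudin 18, a tight junction protein with a stomach form and a lung form that arise from separate first exons.

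The table lists genes that the authors selected. No row of the authors' deposited table has a log2 fold change smaller than 1 in size or an FDR above 0.049, and 555 rows were higher and 198 (26.3%) lower in the shTMPRSS4 libraries. Library depth, recovered from the ratio of count to FPKM, was 53300000, 50400000 and 46800000 reads in shTMPRSS4 replicates 1, 2 and 3 and 57200000, 37200000 and 30200000 reads in control replicates 1, 2 and 3. Control replicate 3 alone carries the code L3 in its label, where the other 5 carry L4. None of 10 marker genes of pancreatic tumour epithelium, such as KRT19 and EPCAM, was among the listed genes, so the cell type was not checked here.

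The stretch just upstream of each transcription start is shown, so that the starts of the 4 genes can be compared. The sequences come from RefSeq on GRCh38.p14, cover the 250 bases before the start, and are written 5′ to 3′ on the strand of the gene. RefSeq and GENCODE place some starts differently, so a window can hold bases that GENCODE counts as exon. ANXA10 lies on chromosome 4, plus strand (chr4:168092287-168092536), CTSE on chromosome 1, minus strand (chr1:206023896-206024145), and CEACAM6 on chromosome 19, plus strand (chr19:41755280-41755529). CLDN18 lies on chromosome 3, plus strand, with a first start used by the stomach form (chr3:137998566-137998815) and a second start, 11349 bases downstream, used by the lung form (chr3:138009915-138010164). Capitals mark matches to any of 8 short motifs, searched on both strands: the letters TATAAA as the core of a TATA box, the letters of the CCAAT box, the letters AGATAA as a site of the GATA family of factors, the letters GTTAAT as a half-site of the HNF1 factors, the letters TGTTTAC as a site of the forkhead family, the letters TGANTCA as a site of AP-1 dimers, the letters TTTATG as a site of the CDX factors and the letters CACGTG as an E-box.
ANXA10: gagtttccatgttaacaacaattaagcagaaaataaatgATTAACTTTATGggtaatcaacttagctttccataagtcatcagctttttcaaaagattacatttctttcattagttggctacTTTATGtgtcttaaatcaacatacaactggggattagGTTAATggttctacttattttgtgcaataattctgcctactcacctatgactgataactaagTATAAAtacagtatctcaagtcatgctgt
CTSE: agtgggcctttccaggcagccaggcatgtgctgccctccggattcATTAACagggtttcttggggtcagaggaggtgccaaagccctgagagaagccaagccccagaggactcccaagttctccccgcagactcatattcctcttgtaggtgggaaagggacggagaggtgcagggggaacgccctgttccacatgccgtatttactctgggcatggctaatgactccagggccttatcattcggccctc
CEACAM6: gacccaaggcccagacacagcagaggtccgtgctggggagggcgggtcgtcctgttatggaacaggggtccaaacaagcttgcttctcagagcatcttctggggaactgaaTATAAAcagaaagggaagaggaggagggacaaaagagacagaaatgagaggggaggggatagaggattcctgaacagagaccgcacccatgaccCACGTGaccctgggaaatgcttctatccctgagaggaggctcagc
CLDN18 first start: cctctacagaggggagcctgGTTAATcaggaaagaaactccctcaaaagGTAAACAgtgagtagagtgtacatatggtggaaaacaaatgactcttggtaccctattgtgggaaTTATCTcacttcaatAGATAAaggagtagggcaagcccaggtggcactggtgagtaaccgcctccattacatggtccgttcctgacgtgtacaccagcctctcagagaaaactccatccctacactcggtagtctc
CLDN18 second start: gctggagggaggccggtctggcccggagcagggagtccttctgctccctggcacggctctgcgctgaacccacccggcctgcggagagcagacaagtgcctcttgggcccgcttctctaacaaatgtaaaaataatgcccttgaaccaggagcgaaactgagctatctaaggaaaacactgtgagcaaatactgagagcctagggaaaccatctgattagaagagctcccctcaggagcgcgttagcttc

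The windows had few features in common. The HNF1 half-site was the single motif found in the windows of 3 of the 4 genes. It occurred in ANXA10 at 211 and 91 bases upstream of the start, in CTSE at 205 bases and at the first start of CLDN18 at 230 bases, and it occurs in 6.24% of 34943 promoter windows of this length. ANXA10 carried a TATA box 29 bases upstream of its start (10.8% of windows hold that motif anywhere) and a CDX motif at 205 and 128 bases, the farther one directly beside an HNF1 half-site without overlap (CDX, 9.66% of windows). CEACAM6 held a TATA box sequence at 139 bases and an E-box at 45 bases (6.32% of windows). These distances depend on the start used. GENCODE starts CEACAM6-201 at 41755421, where RefSeq has 41755530, and ANXA10-201 at 168092515, where RefSeq has 168092537. From the GENCODE starts both TATA motifs lie closer to the start, and the CEACAM6 E-box lies downstream of it. The first start of CLDN18 held 2 GATA motifs, at 136 and 121 bases (9.19% of windows), and a forkhead motif at 201 bases (2.98%). No window held the CCAAT box (32% of windows) or the AP-1 motif (6.59%), and none of the 8 motifs was found at the second start of CLDN18. The ANXA10 window was 31.2% G and C, against 57.6% in CTSE, 55.2% in CEACAM6, 47.6% and 56.4% at the first and second start of CLDN18 and a median of 58% over all windows. The shares over all windows were not matched for G and C content, so they are no measure of enrichment. These matches describe letters and were not tested as binding sites.

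ANXA10 (ENSG00000109511, chromosome 4, 168092515 to 168187690, GRCh38) was the most abundant of the 4. It had 29.95, 30.56 and 31.57 FPKM in shTMPRSS4 replicates 1, 2 and 3, against 107.16, 105.46 and 108.27 FPKM in control replicates 1, 2 and 3. FPKM is the fragment count scaled by transcript length and library depth. The groups lay far apart, and within each group the libraries stayed close together, with means of 30.7 ± 0.818 FPKM in shTMPRSS4 and 107 ± 1.42 FPKM in control libraries (SD, n = 3 each). The log2 fold change, on depth-scaled counts plus 0.5, was -1.80 ± 0.02 (SE), and the edgeR quasi-likelihood adjusted p was 5.65e-10. In the authors' deposited table ANXA10 had the lowest p-value of all 753 rows (8.70e-197), and it ranked 10 among them by control FPKM. These values rest on 2092 to 2264 reads per shTMPRSS4 library and 4636 to 8688 reads per control library. In bulk RNA, fewer cells expressing a gene and less of its RNA per cell cannot be told apart.

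CTSE (ENSG00000196188, chromosome 1, 206009264 to 206023909, minus strand) showed the smallest fall and the smallest spread. It had 8.46, 8.41 and 8.42 FPKM in shTMPRSS4 replicates 1, 2 and 3, against 17.92, 18.32 and 18.09 FPKM in control replicates 1, 2 and 3. All 3 shTMPRSS4 libraries were below every control library, with means of 8.43 ± 0.0265 FPKM in shTMPRSS4 and 18.1 ± 0.201 FPKM in control libraries (SD, n = 3 each). This is a log2 difference of -1.10 ± 0.01 (SE; edgeR adjusted p = 1.01e-07). Ranked by the size of the fall in the authors' deposited table, CTSE stood at 162 among the 198 lower genes, near the 2-fold limit of the selection. CLDN18 stood at 42, ANXA10 at 54 and CEACAM6 at 66.

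CEACAM6 (ENSG00000086548, chromosome 19, 41750977 to 41772208, plus strand) had 3.74, 3.94 and 3.71 FPKM in shTMPRSS4 replicates 1, 2 and 3, against 11.52, 12.23 and 13.25 FPKM in control replicates 1, 2 and 3. The groups did not overlap, and the control libraries were more uneven (coefficient of variation 7.05%) than the shTMPRSS4 libraries (3.29%). Means were 3.80 ± 0.125 FPKM in shTMPRSS4 and 12.3 ± 0.870 FPKM in control libraries (SD, n = 3 each). The log2 scale put the fall at -1.70 ± 0.06 (SE; edgeR adjusted p = 6.56e-08). Of the 31-base words in its coding transcripts 14.4% also occur in other genes, most often in CEACAM5, so part of the CEACAM6 count depends on how shared reads were assigned. The same share was 0% for ANXA10, 0.135% for CTSE and 1.14% for CLDN18. CEACAM6 also overlaps a longer readthrough gene on its own strand and an antisense gene, and ANXA10 and CLDN18 each overlap an antisense gene. No strand-marking step is described in the labels, so reads of such partners could not be told apart here.

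CLDN18 (ENSG00000066405, chromosome 3, 137998735 to 138033655, plus strand) was barely detected. It had 8, 5 and 7 reads in shTMPRSS4 replicates 1, 2 and 3, against 37, 17 and 12 reads in control replicates 1, 2 and 3, or 0.04, 0.03 and 0.04 FPKM against 0.19, 0.13 and 0.11 FPKM. Every shTMPRSS4 library was below every control library, but the exact Poisson intervals (95%, counting error only) of 3.45 to 15.8 reads in shTMPRSS4 replicate 1 and 6.2 to 21.0 reads in control replicate 3 overlapped. Summed over libraries, 20 reads in shTMPRSS4 and 66 in control libraries gave a depth-scaled level 3.99-fold lower, with an exact 95% interval of 2.39 to 6.94 that covers counting error only. The log2 fold change of the library means was -1.82 ± 0.27 (SE; edgeR adjusted p = 1.57e-03). CLDN18 passed the filter on low counts only through the control libraries, where it was higher. Its stomach and lung transcripts share 3074 bases, 89.5% of the stomach form (CLDN18-202) and 87.3% of the lung form (CLDN18-201), and the gene count does not say which form was present.

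**Figure D1:**
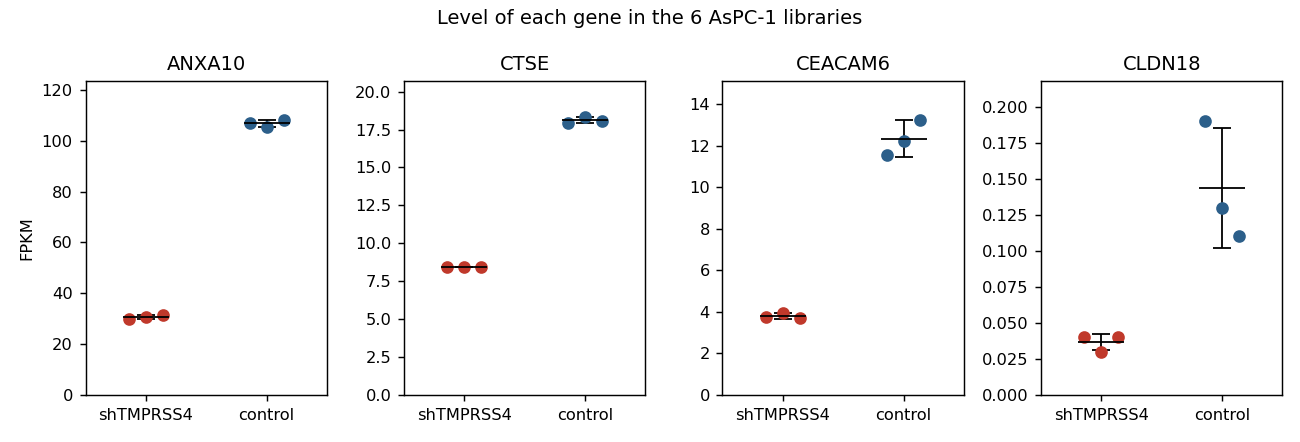
FPKM (vertical axes, from 0) of ANXA10, CTSE, CEACAM6 and CLDN18 in each of 3 shTMPRSS4 and 3 control libraries, with points for replicates 1, 2 and 3 from left to right and bars for the mean and SD. In each panel the shTMPRSS4 libraries lie below all control libraries, from 29.95 to 31.57 against 105.46 to 108.27 FPKM for ANXA10 and from 0.03 to 0.04 against 0.11 to 0.19 FPKM for CLDN18.

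All 4 genes passed the edgeR test as lower, where 25.8% of the 705 genes tested did so, 73.3% passed as higher and 99.1% passed in either direction, and all 4 had groups that did not overlap, where 25% of the 753 rows were lower and 72.8% higher without overlap. Since the rows were selected for a difference in these same libraries, and the genes were chosen with earlier results known, neither count is evidence about the set. An exact two-sided permutation test over 3 against 3 libraries gave p = 0.1 for each gene, the smallest value that this design allows. The median log2 fold change was 1.34 over all 753 rows and -1.38 over the 198 lower rows. Without control replicate 3, the library coded L3, the log2 fold changes were -1.79 for ANXA10, -1.10 for CTSE, -1.64 for CEACAM6 and -1.97 for CLDN18. The L3 code marks 1 library and gives no value of its own.

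**Figure D2:**
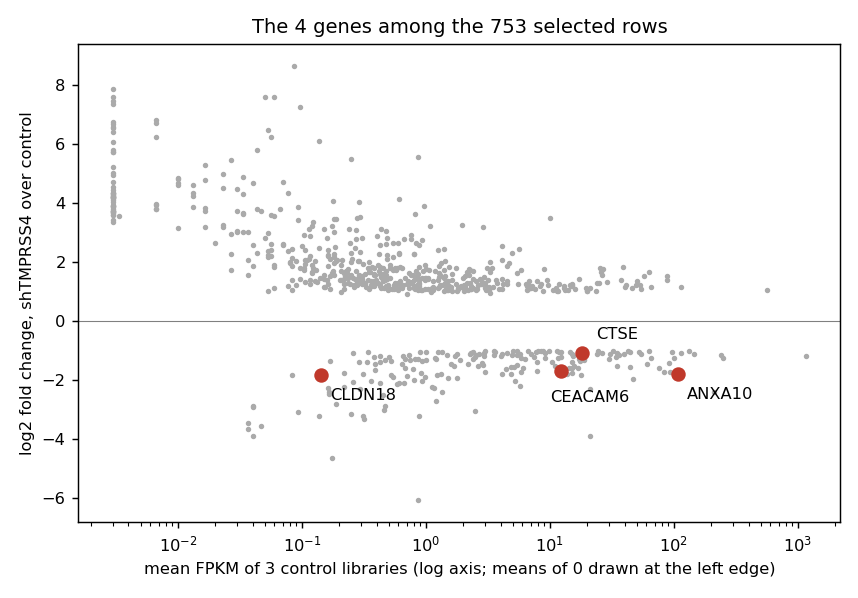
Log2 fold change of shTMPRSS4 over control (vertical axis) against the mean FPKM of the 3 control libraries (horizontal axis, log scale) for the 753 selected rows, with the 4 genes in red. The gap around 0 is the selection on fold change, ANXA10 lies among the most abundant lower genes at 107 FPKM, and CLDN18 lies at 0.143 FPKM.

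The size of each fall depends on the scale set between libraries. Scaling by the listed genes alone moved the median log2 fold change of tested genes by -1.20 with TMM, by -1.13 with DESeq2 size factors and by -0.66 with upper quartiles, and it gave 167 higher and 191 lower calls with TMM and 197 of each with DESeq2, against 517 higher and 182 lower with recovered depth. Under these scalings all 4 genes were lower still. With TMM the log2 fold changes were -3.01 for ANXA10, -2.31 for CTSE, -2.90 for CEACAM6 and -2.98 for CLDN18. The larger falls contain the shift of the scale.

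**Figure D3:**
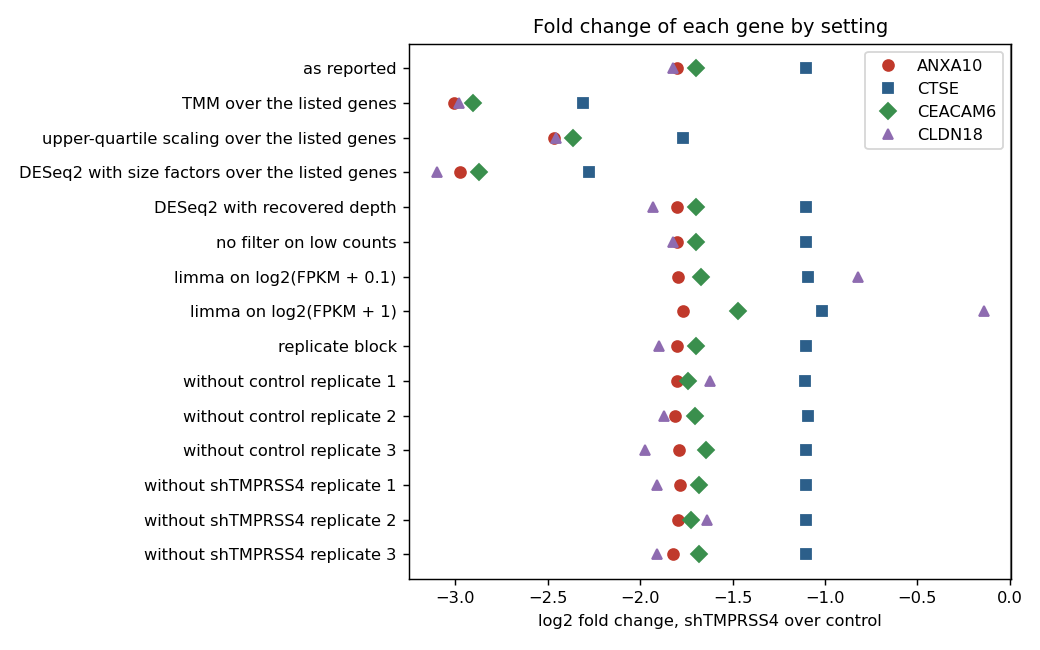
Log2 fold change of shTMPRSS4 over control (horizontal axis) for ANXA10 (circles), CTSE (squares), CEACAM6 (diamonds) and CLDN18 (triangles) under the reported setting and 14 alternatives (rows). Every point lies below 0, the 3 scalings over the listed genes lie farthest left, and CLDN18 moves towards 0 with limma on FPKM plus a constant because that constant exceeds or approaches its level.

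Ratios between the genes within a library do not depend on that scale, and they separated CTSE from the other 3. The ratio of ANXA10 to CTSE FPKM was 3.54, 3.63 and 3.75 in shTMPRSS4 replicates 1, 2 and 3, against 5.98, 5.76 and 5.99 in control replicates 1, 2 and 3. These values did not overlap, and the log2 ratio differed by -0.70 ± 0.03 (SE). The ratio of CTSE to CEACAM6 was 2.26, 2.14 and 2.27 in shTMPRSS4 libraries, against 1.556, 1.498 and 1.365 in control libraries, a log2 difference of 0.59 ± 0.06 without overlap. CTSE thus kept a larger share of its control level than ANXA10 and CEACAM6 did, with no overlap between the groups. The ratio of ANXA10 to CEACAM6 averaged 8.09 ± 0.383 in shTMPRSS4 and 8.70 ± 0.569 in control libraries (SD, n = 3 each), which overlapped, with a log2 difference of -0.10 ± 0.07 (exact permutation p = 0.2).

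The 3 ratios to CLDN18 were imprecise. The log2 ratio of CTSE to CLDN18 differed by 0.84 ± 0.28 without overlap, and the log2 ratios of ANXA10 and of CEACAM6 to CLDN18 differed by 0.14 ± 0.27 and 0.24 ± 0.33 with overlap. The FPKM of CLDN18 is given to 2 decimals only, and with read counts plus 0.5 in its place the differences were 0.74 for CTSE, 0.04 for ANXA10 and 0.14 for CEACAM6. Over the 6 pairs of genes, the 3 pairs without overlap reached the exact permutation p of 0.1 that is the smallest possible, so no pair could pass 0.05.

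**Figure D4:**
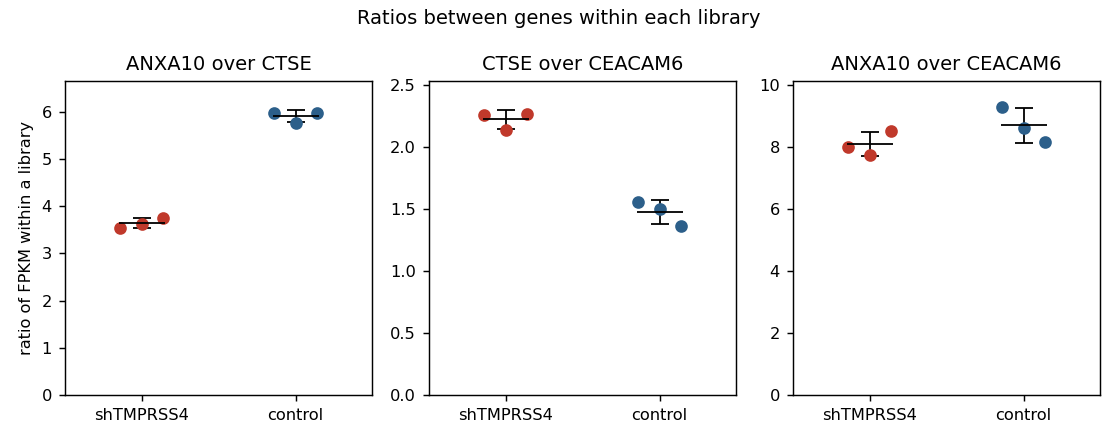
Ratio of FPKM within a library (vertical axes, from 0) for ANXA10 over CTSE, CTSE over CEACAM6 and ANXA10 over CEACAM6 in 3 shTMPRSS4 and 3 control libraries, with the mean and SD. The first 2 ratios separate the groups, at 3.54 to 3.75 against 5.76 to 5.99 and at 2.14 to 2.27 against 1.37 to 1.56, and the last one overlaps.

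Levels can be compared between genes only as far as the length in the FPKM holds. For 113 of 128 genes with coding transcripts of several lengths and at least 200 reads per library, the length implied by count and FPKM equalled the mean length of the gene's coding transcripts in GENCODE release 29 within 0.5%, and for 3 it equalled the longest. For CEACAM6 that mean is 1635.5 bases, since a 571-base fragment (CEACAM6-202) is averaged with the 2700-base main transcript. Per length of the main transcript alone CEACAM6 would stand at 2.30 ± 0.0761 in shTMPRSS4 and 7.47 ± 0.528 in control libraries (same unit, SD, n = 3 each), 1.65-fold lower than deposited. For ANXA10 both lengths are 1417 bases, and for CTSE and CLDN18 the longest transcript is 1.04 and 1.01 times the mean. The order of levels, ANXA10 above CTSE, CTSE above CEACAM6 and CLDN18 far below, held in every library with either length. Fold changes between groups do not involve the length.

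Other genes of the classical subtype went both ways. Of 43 genes in the classical list, 9 were among the listed genes. Outside the 4 genes edgeR called 2 lower and 3 higher, where 25.8% of all genes tested were called lower and 73.3% higher. Nothing about the list is read from these counts. Their median log2 fold change, 3.02 beside 1.34 over all rows, is the value of ATP10B, which was near the floor in control libraries. TMEM45B, a multi-pass membrane protein, fell to 17.98, 17.77 and 18.27 FPKM in shTMPRSS4 libraries, against 39.44, 39.00 and 39.27 FPKM in control libraries (log2 fold change -1.12 ± 0.01, edgeR adjusted p = 1.61e-08). REG4, a secreted lectin of intestinal and goblet cells, fell to 25.23, 23.56 and 25.99 FPKM in shTMPRSS4 libraries, against 66.37, 93.49 and 67.18 FPKM in control libraries, where replicate 2 was the highest. The 3 that rose were TFF3 and SPINK4, products of goblet cells, and ATP10B, a phospholipid flippase at 0.247 ± 0.0208 FPKM in shTMPRSS4 and 0.03 ± 0.02 FPKM in control libraries (SD, n = 3 each). TFF3 had 109.59, 111.01 and 109.02 FPKM in shTMPRSS4 libraries, against 7.81, 11.47 and 10.80 FPKM in control libraries. SPINK4 had 30.03, 31.27 and 31.43 FPKM in shTMPRSS4 libraries, against 0.19, 0 and 0.07 FPKM in control libraries, so it was nearly absent there. REG4, SPINK4 and ATP10B were named after their values were seen.

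In the gastric foveolar and pyloric list, 5 of 30 genes were listed, and outside the 4 genes 1 fell and 1 rose. VSIG1, a junctional adhesion protein of gastric glands, fell to 0.38, 0.37 and 0.18 FPKM in shTMPRSS4 libraries, against 2.81, 2.50 and 2.19 FPKM in control libraries, 8.37-fold lower with a log2 fold change of -3.06 ± 0.36 (edgeR adjusted p = 2.07e-06). MUCL3, a mucin-like membrane protein, rose to 1.90, 2.39 and 1.59 FPKM in shTMPRSS4 libraries, against 0.80, 0.77 and 0.75 FPKM in control libraries (edgeR adjusted p = 3.19e-05), a log2 fold change of 1.32 that was 0.11 with TMM over the listed genes. Of the 28 genes of the opposite, basal-like subtype 3 were listed, and edgeR called 1 higher and 2 lower. Across all genes tested 73.3% were called higher and 25.8% lower, and nothing about the gastric or basal-like list is read from these counts. The higher one was SPRR1B, at 24.5 ± 0.470 FPKM in shTMPRSS4 and 9.43 ± 0.474 FPKM in control libraries. With TMM over the listed genes SPRR1B stood at 0.17 on the log2 scale (edgeR adjusted p = 2.26e-01) and MUCL3 lost its call too (edgeR adjusted p = 5.85e-01). The lower ones were FAM83A, at 0.127 ± 0.0551 FPKM in shTMPRSS4 and 0.390 ± 0.01 FPKM in control libraries, and DHRS9, whose groups overlapped.

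**Figure D5:**
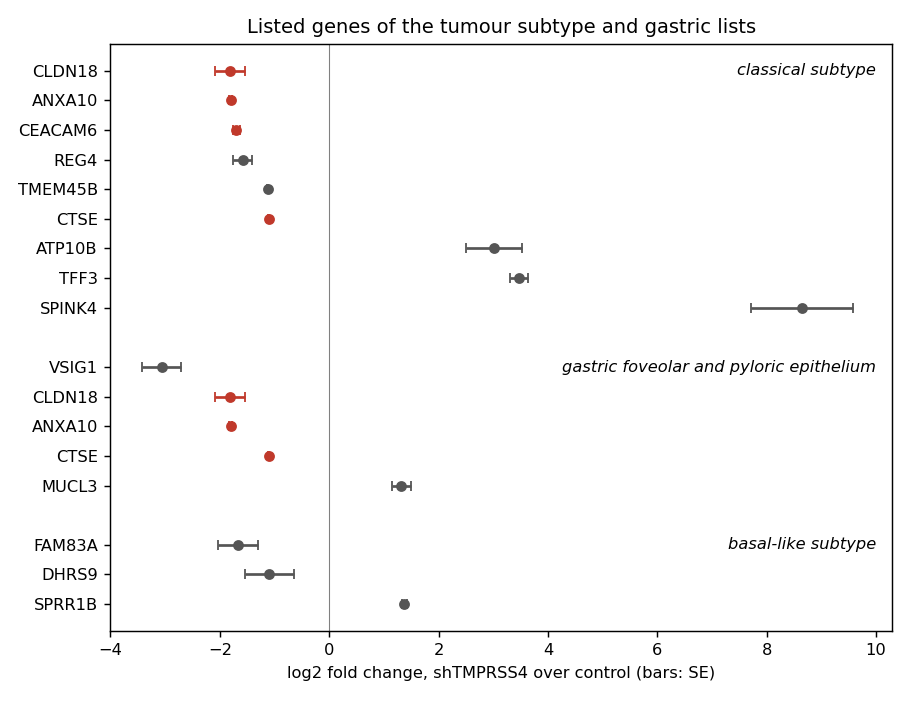
Log2 fold change of shTMPRSS4 over control (horizontal axis, bars give the SE) for the listed genes of the classical subtype, gastric foveolar and pyloric, and basal-like lists, with ANXA10, CTSE, CEACAM6 and CLDN18 in red. Values run from -3.06 for VSIG1 to 8.64 for SPINK4, and each list holds genes on both sides of 0.

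Few relatives of the 4 genes were listed. Of 13 annexin genes ANXA10 and ANXA13 were present, and they moved in opposite directions: ANXA13, an intestinal annexin, rose to 1.97, 3.34 and 3.19 FPKM in shTMPRSS4 libraries, against 0.49, 0.67 and 0.27 FPKM in control libraries (edgeR adjusted p = 3.48e-05). Of 12 aspartic proteases CTSE was listed with the pepsinogen genes PGA3, PGA4 and PGA5, the zymogens of gastric chief cells. The 3 pepsinogen genes had 0 reads in every control library and summed to between 3.22 and 3.82 FPKM in the shTMPRSS4 libraries, and their near-identical sequences leave the split between them uncertain. CLDN18 was the single listed gene of 25 claudins, and CEACAM6 of 22 CEACAM and PSG genes. None of the 18 tight junction partners looked for was listed. The deposited annotation did give the Tight junction pathway to 4 listed genes, CLDN18 included, of which 2 were lower. It gave the component bicellular tight junction to 4, CLDN18 included, of which 1 was lower. Family members that the table leaves out have no value here.

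Of 30 transcription factors of gut and foregut 4 were listed, and all 4 were called higher, where 73.3% of all genes tested were. Nothing about the list is read from that count. They were ATOH1 and NEUROG3, which specify secretory and endocrine cells, CREB3L1, a membrane-tethered regulator of secretion, and NKX2-1, a regulator of lung and thyroid. CREB3L1 averaged 121.6 ± 2.56 FPKM in shTMPRSS4 and 53.0 ± 2.88 FPKM in control libraries (SD, n = 3 each) and turned to -0.01 on the log2 scale with TMM over the listed genes. NKX2-1 stood at 0.11 with TMM (edgeR adjusted p = 7.58e-01), so the calls of CREB3L1 and NKX2-1 depend on the scale, and those of ATOH1 and NEUROG3 held with TMM and with DESeq2 size factors. The other factors of the list were not analysed here.

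Markers of other cell types differed between the same libraries, and each count below stands against 73.3% of all tested genes called higher and 25.8% called lower. Their calls are given as values, with nothing about the lists read from the counts. Of 19 intestinal goblet genes 8 were listed, 6 of them called higher, 1 called lower (REG4) and 1 not tested. The 5 with the lowest deposited FDR were TFF3, FCGBP, a mucus-binding protein, ATOH1, HEPACAM2, an adhesion protein, and B3GNT6, a mucin core glycosyltransferase, and all 5 were higher. The summed level of the 8 genes was 208.9 to 212.1 FPKM in shTMPRSS4 and 79.8 to 110.1 FPKM in control libraries. REG4, which fell, made up most of the control sums, at 66.37, 93.49 and 67.18 FPKM in control replicates 1, 2 and 3. The sum thus mixes genes that rose with 1 that fell. Of 32 genes of the absorptive and CDX programme 4 were listed, 3 called higher and 1 not tested, with sums of 16.4 to 19.8 FPKM in shTMPRSS4 and 5.12 to 6.13 FPKM in control libraries. With TMM over the listed genes neither CDHR5 nor PHGR1 was called. CDHR5 turned to -0.04 on the log2 scale (edgeR adjusted p = 7.70e-01), and PHGR1 stood at 0.67 (edgeR adjusted p = 8.80e-02). GUCA2A kept its call with TMM at 1.55 (edgeR adjusted p = 7.91e-03), and GUCA2B was the gene not tested. In the squamous list 3 of the 4 listed genes were called higher and KRT13 lower. The sums were 57.1 to 62.9 FPKM in shTMPRSS4 and 22.3 to 23.6 FPKM in control libraries. With TMM CNFN turned to -0.09 and SPRR1B, as above, lost its call. SPRR1A kept its call with TMM at 1.99 (edgeR adjusted p = 4.02e-05). Acinar, fibroblast and endothelial lists had 1 listed gene each, CELA3A at 3.15 to 4.34 FPKM in shTMPRSS4 and 0.26 to 0.34 FPKM in control libraries, FAP at 1.55 to 1.95 FPKM in shTMPRSS4 and 0.40 to 0.58 FPKM in control libraries, and PECAM1 at 0.15 to 0.24 FPKM in shTMPRSS4 and 0.38 to 0.66 FPKM in control libraries. The endocrine list had GCG alone, at 0.08 to 0.21 FPKM in shTMPRSS4 libraries and 0 reads in control libraries. No immune marker of 11 was listed. The part of these cell types in the fall of the 4 genes was not tested.

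For each gene, the listed genes with the most similar profile were sought by the root mean square difference of centred log2(FPKM + 0.1) values over the 6 libraries. ANXA10 was closest to ADAM19, a membrane metalloprotease (difference 0.0246), and GNPDA1, an enzyme of amino sugar metabolism (0.0683), among the 383 genes whose mean reached 1 FPKM. CTSE was closest to ANKRD27, a regulator of endosomal trafficking (0.0202), and TCOF1, a nucleolar protein of ribosome synthesis (0.0212). CEACAM6 was closest to the serpin SERPINA5 (0.0638) and to MAT1A, a methionine adenosyltransferase (0.0813). CLDN18 was compared with 142 genes within 3-fold of its mean and was closest to the connexin GJA1 (0.147) and the angiopoietin ANGPT4 (0.19). The constant of 0.1 exceeds the level of CLDN18 in shTMPRSS4 libraries, 0.03 to 0.04 FPKM. With it the log2 fold change of CLDN18 was -0.82 with limma, against -1.82 as reported, so these 2 distances depend on the constant. ADAM19 had 5.02, 4.92 and 5.12 FPKM in shTMPRSS4 libraries, against 17.67, 17.12 and 18.31 FPKM in control libraries, so it followed ANXA10 at a lower level. Closeness here covers the size of the group difference and the replicate pattern, and nothing else.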

How the data were processed

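RNA of 3 shTMPRSS4 and 3 control AsPC-1 samples was poly(A)-enriched and sequenced on an Illumina HiSeq instrument, per the labels' protocols. The submitters' processing notes list Bowtie (0.12.2) with mm8 and mm9, which are mouse genomes, although all 753 identifiers are human Ensembl genes. Which genome was aligned to is therefore uncertain. The sources used here give neither counting tool nor the authors' test. Per the file headers, the authors deposited, for every gene and library, the read count and the FPKM. They also deposited group means, the log2 fold change, its p-value and its FDR. The genes and lists were chosen with earlier results of these data known.

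Relative depth was the median ratio of count to FPKM over 159 genes with at least 200 reads in every library, and absolute depth used 12 genes with 1 transcript in GENCODE release 29, in which all 753 identifiers were found. Counts of all 753 rows were fitted in edgeR 4.0.16 under R 4.3.3 (quasi-likelihood) with its low-count filter, recovered depth as library size and robust estimation. Benjamini-Hochberg adjustment ran over the 705 genes tested, at a threshold of 0.05. On selected genes these p-values are descriptive. They cover the spread between these samples alone, which may be technical, because no label calls the replicates separate cultures. Intervals cover counting error only. DESeq2 1.42.0 and limma 3.58.1 (log2(FPKM + 0.1) and log2(FPKM + 1)) served as alternatives. Named genes were the 4 genes, the 2 nearest profiles of each, and of each list all present members, or the 5 with the lowest deposited FDR where more than 5 were present. RefSeq promoter sequences were matched by symbol for all 4 genes.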

Additional observations from a re-analysis of the deposited data

How the results depend on the processing

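All 4 genes stayed lower and past the threshold in all 14 alternatives, with the largest adjusted p at 2.03e-07 for ANXA10, 4.59e-06 for CTSE, 4.08e-06 for CEACAM6 and 1.59e-02 for CLDN18. The rows were selected for a difference in these same libraries, so passing was largely fixed in advance. With DESeq2 on recovered depth 752 of 753 rows passed, 198 of them lower. CLDN18 ranged from -3.10 with DESeq2 size factors to -0.14 with limma on log2(FPKM + 1), against -1.82 as reported. Of the listed genes 699 passed with recovered depth, 358 with TMM and 394 with DESeq2 size factors over the listed genes. With the replicate number as a block 682 passed. The log2 fold changes, here those of the edgeR model, were -1.80, -1.10, -1.70 and -1.90 for ANXA10, CTSE, CEACAM6 and CLDN18. The move of CLDN18 from -1.82 thus holds a change of estimator as well as the block. Same-numbered libraries did not deviate together in the listed genes (correlations of -0.02, -0.04 and -0.01 for numbers 1, 2 and 3). Whether same-numbered samples were prepared together cannot be told from this. Leaving out 1 library at a time, the log2 difference of the ANXA10 to CTSE ratio ran from -0.72 to -0.68. That of ANXA10 to CLDN18 ran from -0.0817 to 0.32, and that of CEACAM6 to CLDN18 from -0.0276 to 0.47. The last 2 turned without control replicate 1, the deepest library, and the cause was not tested. Counts of 5 to 8 reads per shTMPRSS4 library limit every CLDN18 value.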

Other observations

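The spread between replicates differed among the 4 genes. The index of dispersion, the variance of the counts around their depth-scaled mean divided by what counting alone gives, was 0.0101 for CTSE in the shTMPRSS4 libraries, the third lowest among the 287 genes averaging 200 reads or more, and 0.212 in the control libraries. For ANXA10 it was 1.53 in shTMPRSS4 and 0.91 in control libraries, and for CEACAM6 0.34 in shTMPRSS4 and 4.02 in control libraries. The medians of those 287 genes were 3.68 in shTMPRSS4 and 3.99 in control libraries. With 3 libraries per group such an index is itself imprecise, so the standard error of CTSE can understate its true error.

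The annotation terms in the deposited table shared little between the 4 genes, with no term given to more than 2 of them. CEACAM6 and CLDN18 shared plasma membrane, a term on 235 listed genes of which 69 were lower. Digestive tract development was given to CLDN18 and 2 other listed genes, both higher. Lysosome was given to CTSE and 2 other listed genes, both higher. Terms of CEACAM6 differed in their share of lower genes, which was 26.3% over all 753 rows. Of the genes with leukocyte migration 8 of 10 were lower, and with positive regulation of cell migration 10 of 14, CEACAM6 included. With cell adhesion 12 of 62 were lower, with homophilic cell adhesion 3 of 28 and with apical plasma membrane 4 of 16, CEACAM6 included. These terms are examples, and no term was tested.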
